A study of Homo sapiens with 17 samples.

Results

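Keratins are the intermediate filament proteins of epithelial cells, and the 10 keratin genes described here are the luminal or simple epithelial keratins KRT7, KRT8, KRT18, KRT19 and KRT20, the basal keratins KRT5, KRT14, KRT15 and KRT17, and KRT80. They were chosen by symbol from 23230 genes in the count tables, and all 10 were found there. RNA was sequenced from LNCaP, an established human prostate cancer cell line that depends on androgen, and from LNCaP-abl (abl below), its androgen-independent subline. Each line was transfected for 3 days with 40 nM of siFOXA1, siCREB1 or siControl, that is, an siRNA against FOXA1, one against CREB1 or a control, and during this time all cells were in 5% serum stripped of steroids with charcoal. Before that, abl at passages 62 to 64 had been kept in 10% stripped serum and LNCaP at passages 32 to 34 in 10% serum, so that line, passage and growth medium cannot be told apart in any comparison of the lines. Each line with each siRNA had 2 libraries, given below in the order 1 and 2.

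A keratin filament is built from pairs of 1 type I and 1 type II chain. KRT8, KRT7, KRT5 and KRT80 are type II keratins, and KRT18, KRT19, KRT20, KRT14, KRT15 and KRT17 are type I. In the prostate, KRT8 and KRT18 mark the luminal cells that secrete into the duct, while KRT5, KRT14 and KRT15 mark the basal layer, whose defining transcription factor is TP63. FOXA1 is a forkhead transcription factor that opens chromatin and is needed for luminal prostate identity, and CREB1 is the factor that binds cyclic-AMP response elements.

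Upstream sequence is shown for the luminal keratins KRT8 and KRT20 because they moved in opposite directions after siFOXA1 in both lines. The RefSeq promoter table held 3 of the 10 keratins. For each, the 250 bases before the annotated start (GRCh38.p14, minus strand, 5′ to 3′) were searched on both strands for the forkhead motifs TGTTTAC and TGTTTGC, for the cyclic-AMP response element TGACGTCA and its core TGACG, and for the forkhead core TGTTT, which lies within both forkhead motifs and was added after the longer motifs gave no match. Capitals mark TGTTT.
KRT20, chr17:40885243-40885492: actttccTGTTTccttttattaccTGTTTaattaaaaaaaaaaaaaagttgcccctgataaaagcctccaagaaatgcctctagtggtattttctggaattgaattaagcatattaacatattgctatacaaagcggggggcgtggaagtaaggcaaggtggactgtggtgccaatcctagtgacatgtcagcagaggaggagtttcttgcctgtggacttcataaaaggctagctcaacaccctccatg
KRT8, chr12:52926470-52926719: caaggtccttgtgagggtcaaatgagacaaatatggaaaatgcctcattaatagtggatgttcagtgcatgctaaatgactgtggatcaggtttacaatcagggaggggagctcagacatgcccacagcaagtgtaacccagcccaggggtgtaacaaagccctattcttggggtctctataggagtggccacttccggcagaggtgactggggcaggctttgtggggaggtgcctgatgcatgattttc
Neither sequence held one of the 3 longer motifs or TGACG. The third keratin in the table is KRT5, which had too few reads to compare; its 250 bases held TGACG once, at base -232 on the other strand, and none of the other motifs. TGACG occurred in 21.2% of such sequences. At least 1 of the longer forkhead motifs occurred in 6.09% and the cyclic-AMP response element in 1.65% of all 35116 sequences of that kind. KRT20 held TGTTT at 2 places on the strand shown, at bases -243 and -226 from the start. The core occurred in 40.4% of all such sequences, so its presence is common. The start used for KRT8 is not the outer end of that gene, which has other annotated starts.

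Libraries held 9092597 to 37314039 reads in genes, and both extremes were abl siControl libraries. CREB1 retained 56.9% of its siControl level in abl siCREB1 and 41.2% in LNCaP siCREB1, while FOXA1 retained 40.0% in abl siFOXA1 and 28.5% in LNCaP siFOXA1. CREB1 itself also fell after siFOXA1, with a log2 fold change of -0.44 in each line (edgeR adjusted p = 0.00114 in abl and 0.00126 in LNCaP). The first siControl library of each line stood apart. CSF3R, a neutrophil gene, was at no more than 0.0765 CPM in any knockdown library, against 2.42 and 0.223 CPM in abl siControl and 2.75 and 0 CPM in LNCaP siControl. S100A9, also a neutrophil gene, was at 4.41 and 2.77 CPM in abl siFOXA1, 0.18 and 0.284 CPM in abl siCREB1, and 2.45 and 0.111 CPM in abl siControl. Its LNCaP levels were 2.49 and 3.4 CPM with siFOXA1, 0.184 and 0.219 CPM with siCREB1, and 2.24 and 0.256 CPM with siControl, so it was not confined to the siControl libraries. Tests of the keratins and of the genes in the lists below were also run without both first siControl libraries, and values are given where a call named here was lost. Over the 8 blood and endothelial markers, 6 were tested and the summed level ran from 2.01 to 37.5 CPM, highest in LNCaP siControl, where the endothelial gene VWF alone was at 30.7 and 27.7 CPM. Of 6 fibroblast markers 4 were tested, with a summed level of 11.2 to 99.0 CPM and COL1A2 at 0 in all 12 libraries. The 6 neuroendocrine markers, 3 of them tested, summed to 52.3 to 109 CPM. The part of these in the keratin results was not tested. All 11 luminal prostate markers were tested, with a summed level of 1630 to 2900 CPM. TP63 had 0 to 7 reads per library. In whole cultures like these, fewer cells of a type and less RNA per cell cannot be told apart.

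Of the 10 keratins, 7 passed the filter on low counts. KRT5, KRT7 and KRT15 did not, with at most 2, 6 and 17 reads in a library. KRT14 and KRT17 passed only through the LNCaP siFOXA1 libraries, where they were high. Together KRT8 and KRT18 made up 98.67% to 99.44% of the reads of the 10 keratins in every library. Levels below are counts scaled to the library's size by TMM (CPM). They are not divided by transcript length, so they compare samples and not genes.

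After siFOXA1, 5 of the 7 tested keratins changed in abl, with 4 higher and 1 lower. The higher ones include KRT14, whose abl call rests on 5 reads and was lost in 11 of 12 alternatives. Across all 15550 genes tested there, 56.5% were called at an adjusted p below 0.05, with 29.9% higher and 26.5% lower. In LNCaP 6 of the 7 changed, 5 higher and 1 lower, where 49.8% of all genes were called, 24.4% higher and 25.5% lower. KRT14 and KRT17 are 2 of those 5, and because they entered the test only through the LNCaP siFOXA1 libraries, their calls there cannot be read against that share. Of the other 5 tested keratins 4 changed after siFOXA1 in each line, 3 higher and 1 lower. The siCREB1 comparison called 3 of 7 in abl (3 of 5 without KRT14 and KRT17), all higher, where 51.2% of all genes were called and 27.5% were called higher. In LNCaP siCREB1 called 1 of 7 (1 of 5 without these genes), higher, where 37.6% of all genes were called, 17.8% higher and 19.8% lower. The siFOXA1 effect differed between the lines for none of the 7 by edgeR (none at an unadjusted p below 0.05 either, and 0 by DESeq2), against 32.6% of all genes called, with 17.9% higher and 14.7% lower in abl. This does not show that the effects were alike. The 95% interval of the difference was -1.35 to 1.86 for KRT19 and -1.77 to 2.12 for KRT20. For KRT17 the difference was -2.10 ± 7.09, and KRT14 and KRT17 entered the test only through 1 side of this comparison. Both knockdowns of a line were set against the same siControl libraries, so their comparisons are not independent. The 10 keratins lie in 2 gene clusters, and neighbours in RefSeq include KRT8 beside KRT18, KRT80 beside KRT7, KRT15 beside KRT19, and KRT14 and KRT17 on either side of KRT16.

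KRT8, the type II partner of KRT18 and one of the 2 keratins with abundant reads, was higher after siFOXA1 in both lines. Its level was 580.6 and 558.3 CPM in abl siFOXA1, 419.0 and 425.5 CPM in abl siCREB1, and 347.5 and 303.8 CPM in abl siControl. In LNCaP it was 960.9 and 939.5 CPM with siFOXA1, 683.8 and 731.7 CPM with siCREB1, and 636.2 and 517.8 CPM with siControl. The 3 groups of each line did not overlap, and siFOXA1 was the highest in each. The log2 fold change of KRT8 after siFOXA1 was 0.80 ± 0.09 in abl (SE; edgeR quasi-likelihood test, Benjamini-Hochberg adjusted p = 3.87e-06) and 0.72 ± 0.09 in LNCaP (adjusted p = 1.66e-05). The difference between these 2 effects, 0.08 with a 95% interval of -0.16 to 0.33, did not pass the test (edgeR adjusted p = 0.657). After siCREB1 the rise was smaller, at 0.37 ± 0.09 in abl (edgeR adjusted p = 0.00321) and 0.29 ± 0.09 in LNCaP (adjusted p = 0.0179), and whether it differed from that after siFOXA1 was not tested. The LNCaP siCREB1 call was lost without the second siControl library, at 0.15 (edgeR adjusted p = 0.187), and without the second siCREB1 library, at 0.24 (edgeR adjusted p = 0.113). KRT8 was also 0.565-fold in abl siControl relative to LNCaP siControl (log2 fold change -0.82 ± 0.09, edgeR adjusted p = 2.03e-06).

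**Figure D1:**
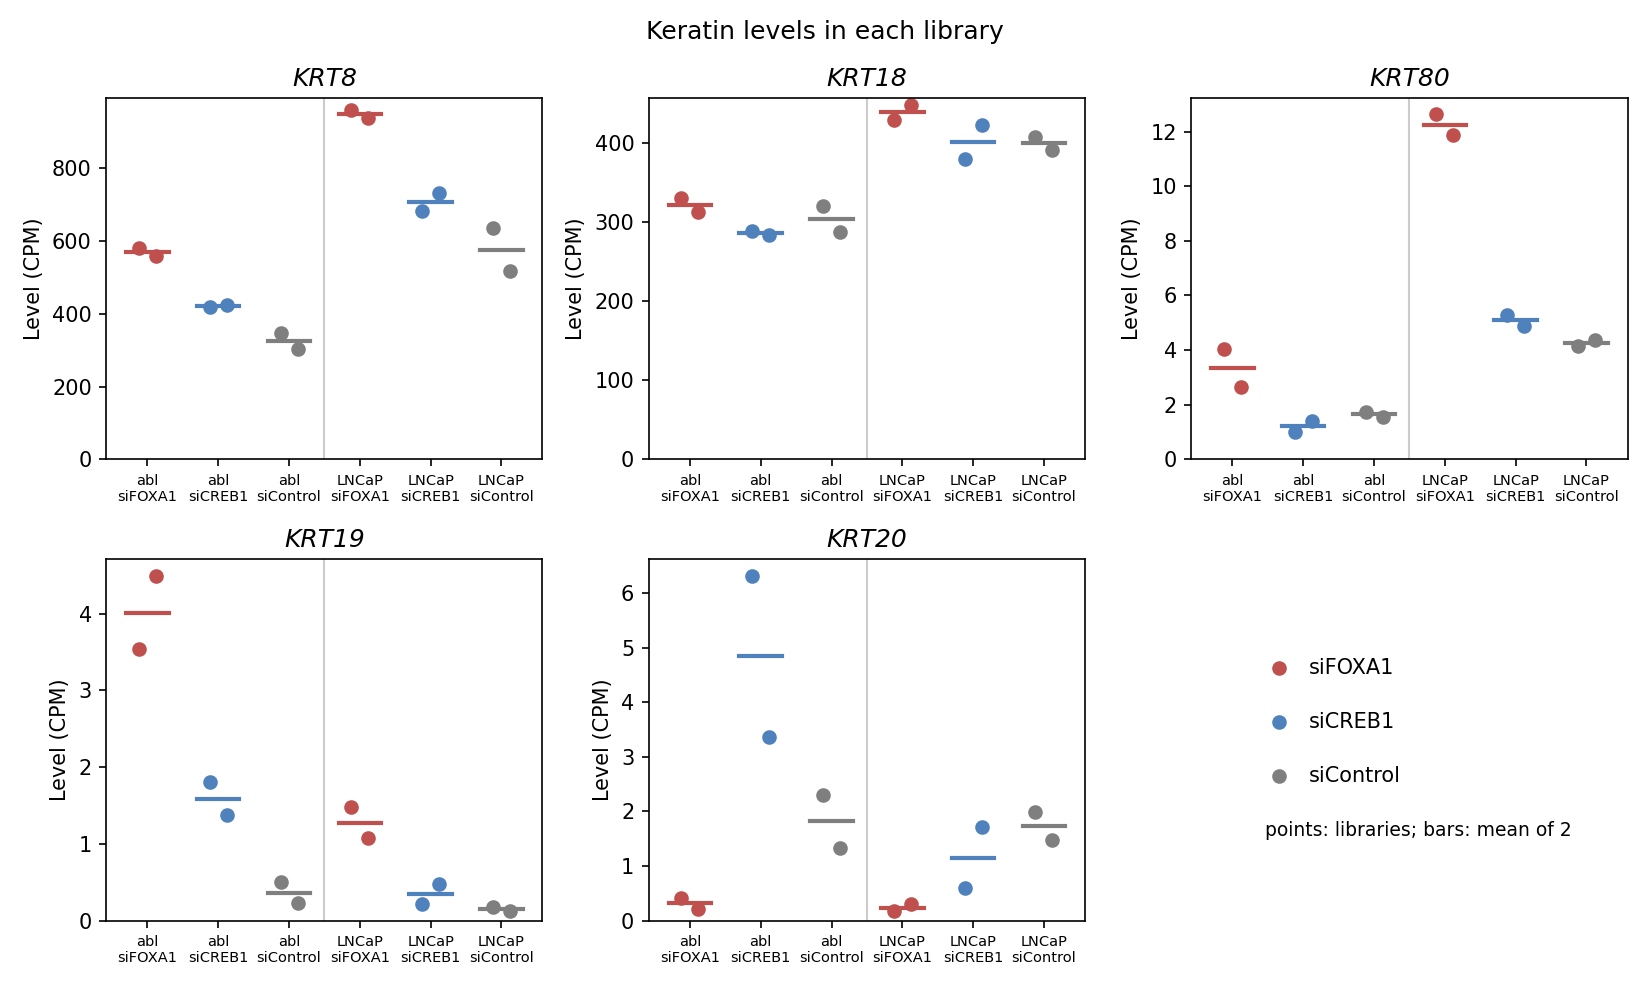
Level of the 5 keratins KRT8, KRT18, KRT80, KRT19 and KRT20 in CPM (linear axes from 0) in each of the 12 libraries, abl left and LNCaP right of the vertical line. Points are libraries and bars are the means of 2; KRT8 and KRT19 are highest with siFOXA1 in both lines, and KRT20 is lowest there.

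KRT18, the type I partner of KRT8, was not called in any of the 4 knockdown comparisons. Its level was 330.4 and 312.4 CPM in abl siFOXA1, 289.1 and 284.2 CPM in abl siCREB1, and 320.6 and 287.7 CPM in abl siControl. In LNCaP it was 429.1 and 449.0 CPM with siFOXA1, 380.1 and 423.7 CPM with siCREB1, and 408.0 and 391.8 CPM with siControl. The knockdown and siControl libraries overlapped in 3 of the 4 comparisons and not in LNCaP siFOXA1. The log2 fold change after siFOXA1 had a 95% interval of -0.06 to 0.22 in abl (0.08 ± 0.07, edgeR adjusted p = 0.383) and of 0.00 to 0.27 in LNCaP (0.13 ± 0.07, edgeR adjusted p = 0.129). Under scaling by library totals alone the LNCaP value was 0.17 and passed (edgeR adjusted p = 0.0355). After siCREB1 the log2 fold change was -0.09 ± 0.07 in abl and 0.01 ± 0.07 in LNCaP (edgeR adjusted p = 0.323 and 0.952). KRT18 was lower in abl siControl than in LNCaP siControl, by a log2 fold change of -0.39 ± 0.07 (edgeR adjusted p = 0.000241).

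The balance between the reads of KRT8 and KRT18 differed with the knockdowns. KRT8 had 1.76 and 1.79 reads per KRT18 read in abl siFOXA1, 1.45 and 1.5 in abl siCREB1, and 1.08 and 1.06 in abl siControl. In LNCaP it had 2.24 and 2.09 with siFOXA1, 1.8 and 1.73 with siCREB1, and 1.56 and 1.32 with siControl. The libraries did not overlap in any of the 4 knockdown comparisons, and every knockdown library had a higher ratio than both siControl libraries of its line. The mean was 1.77 ± 0.0212 in abl siFOXA1 and 1.07 ± 0.0141 in abl siControl, and 2.17 ± 0.106 in LNCaP siFOXA1 and 1.44 ± 0.17 in LNCaP siControl (SD, n = 2 each). With 2 libraries against 2, the smallest p that a two-sided exact permutation test can give is 0.333, which is the value here. The ratio is of reads within a library and does not depend on scaling, but it is not a ratio of molecules, since the genes differ in length. KRT8 and KRT18 have 52 and 68 pseudogenes in RefSeq, so reads shared with near-identical copies may have been lost from or added to both counts. The gene spans also overlap in RefSeq and the library kit does not mark strand, so some reads of one gene may have counted for the other.

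**Figure D2:**
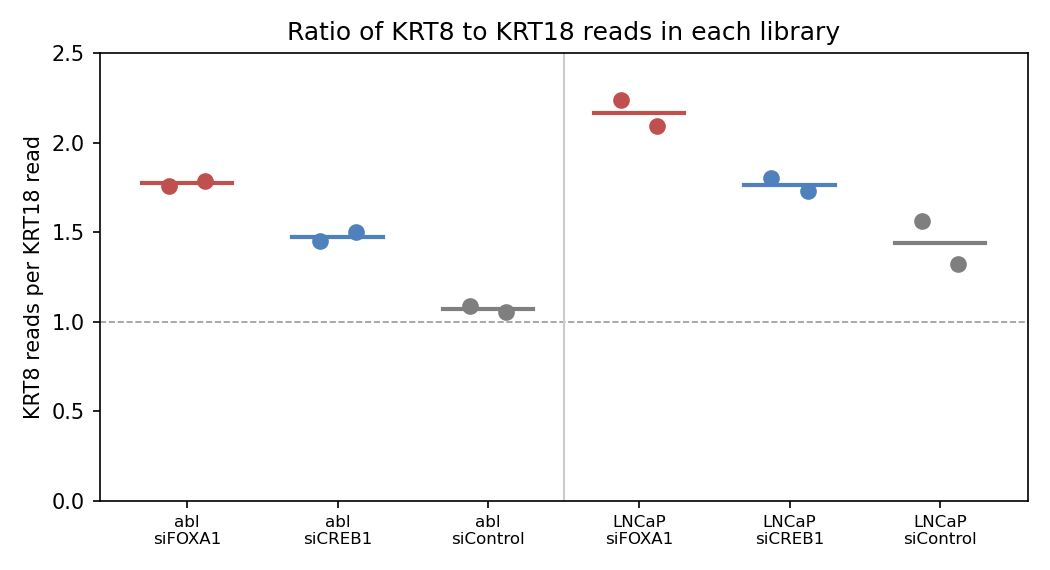
KRT8 reads per KRT18 read in each library (points) with the mean of 2 libraries (bars), abl left and LNCaP right of the vertical line; the dashed line marks 1 read per read. In each line siFOXA1 lies above siCREB1 and siCREB1 above siControl, with 2.24 the highest library (LNCaP siFOXA1) and 1.06 the lowest (abl siControl).

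KRT19, a type I keratin of simple epithelia that has no tail domain, had few reads and the largest rise of the luminal keratins. It was at 3.54 and 4.49 CPM in abl siFOXA1, 1.803 and 1.377 CPM in abl siCREB1, and 0.5001 and 0.2229 CPM in abl siControl. In LNCaP it was at 1.48 and 1.07 CPM with siFOXA1, 0.221 and 0.474 CPM with siCREB1, and 0.181 and 0.128 CPM with siControl. The siFOXA1 libraries of each line lay above all its other libraries. After siFOXA1 the log2 fold change was 3.19 ± 0.35 in abl (edgeR adjusted p = 3.08e-06) and 2.93 ± 0.50 in LNCaP (adjusted p = 0.000261), and the 2 effects differed by 0.25 with a 95% interval of -1.35 to 1.86 (edgeR adjusted p = 0.852). In abl siCREB1 it rose by a log2 fold change of 1.84 ± 0.39 (edgeR adjusted p = 0.00134), and in LNCaP siCREB1 the value was 1.08 ± 0.63 (edgeR adjusted p = 0.198), a difference of effects of 0.76 ± 0.82 that did not pass (edgeR adjusted p = 0.553). These values rest on 181 reads in abl siFOXA1 and 20 in abl siControl, and on 63 reads in LNCaP siFOXA1 and 7 in LNCaP siControl. KRT19 was 1.41 ± 0.63 higher on the log2 scale in abl siControl than in LNCaP siControl, which did not pass (edgeR adjusted p = 0.0643) except without the second abl siControl library (1.60, edgeR adjusted p = 0.0455).

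KRT20, a type I keratin best known from gut epithelium and urothelium, was the only tested keratin lower after siFOXA1. It was at 0.414 and 0.216 CPM in abl siFOXA1, 6.31 and 3.36 CPM in abl siCREB1, and 2.31 and 1.34 CPM in abl siControl. In LNCaP it was at 0.169 and 0.306 CPM with siFOXA1, 0.589 and 1.72 CPM with siCREB1, and 1.99 and 1.47 CPM with siControl. In both lines the siFOXA1 libraries were the lowest. The log2 fold change after siFOXA1 was -2.68 ± 0.61 in abl (edgeR adjusted p = 0.00179) and -2.86 ± 0.64 in LNCaP (adjusted p = 0.00203), with 14 reads in abl siFOXA1 against 95 in abl siControl and 12 in LNCaP siFOXA1 against 78 in LNCaP siControl. The abl value was -2.08 without the first abl siControl library and -2.07 without the first siControl library of each line, and neither passed (edgeR adjusted p = 0.101 for both). After siCREB1, KRT20 rose in abl by a log2 fold change of 1.24 ± 0.38 (edgeR adjusted p = 0.015) and was at -0.62 ± 0.46 in LNCaP, where the libraries overlapped (edgeR adjusted p = 0.313). The siCREB1 effect was higher in abl than in LNCaP by 1.86 ± 0.60 (edgeR adjusted p = 0.0357), the only such difference that passed among the 7 tested keratins. It was 2.18 without the first siControl library of each line (edgeR adjusted p = 0.13) and lost its call in 6 of 17 alternatives. The background of that comparison was 25.5% of genes called, with 14.8% called higher. The abl siCREB1 call itself was lost without the first abl siCREB1 library, at 0.73 (edgeR adjusted p = 0.194), and without the second abl siControl library, at 1.06 (edgeR adjusted p = 0.0609).

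**Figure D3:**
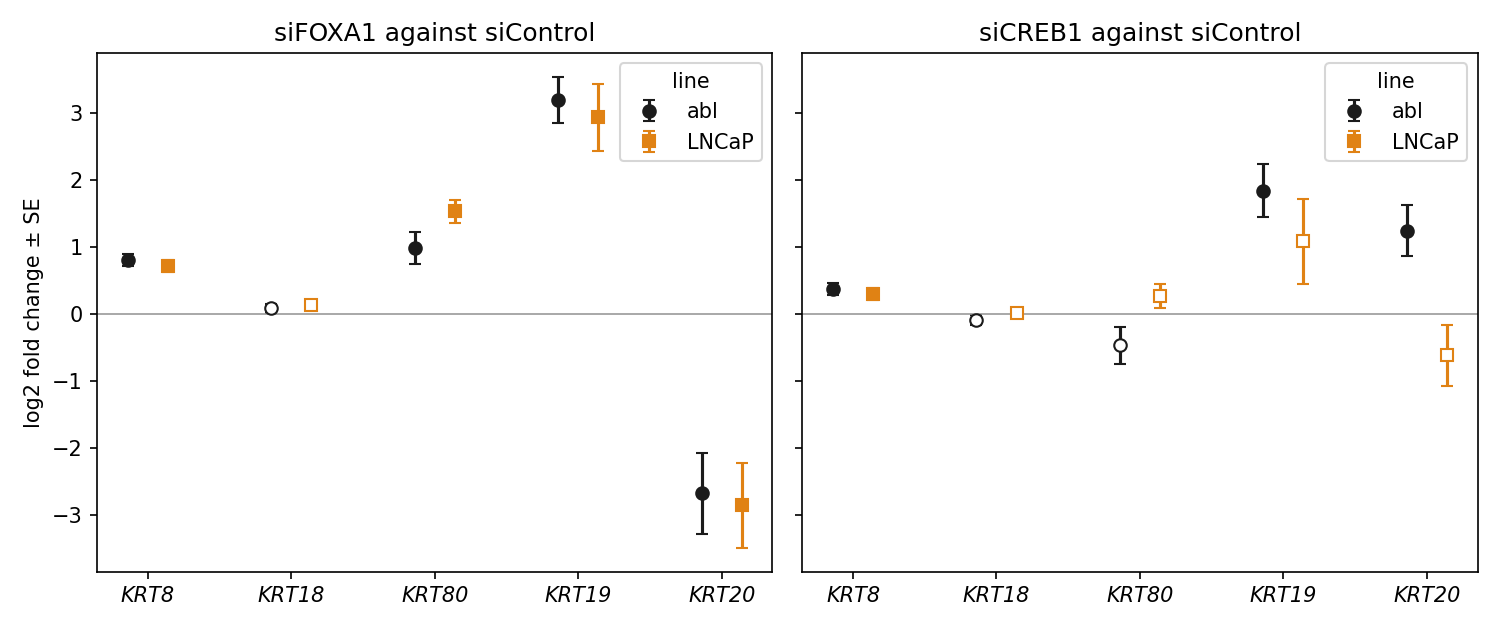
Log2 fold change ± SE of the 5 keratins against siControl, after siFOXA1 (left panel) and siCREB1 (right panel), in abl (circles) and LNCaP (squares). Filled symbols passed an adjusted p of 0.05 and open symbols did not; KRT19 reaches 3.19 and KRT20 falls to -2.68 with siFOXA1 in abl.

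KRT7, the other luminal type II keratin, had 0 to 6 reads per library. Its group totals were 6 reads in abl siFOXA1, 3 in abl siCREB1 and 8 in abl siControl, and 8 in LNCaP siFOXA1, 6 in LNCaP siCREB1 and 2 in LNCaP siControl. No difference in KRT7 was detectable at this depth. In RefSeq it overlaps the antisense gene KRT7-AS, so without strand even these few reads may belong to the other gene.

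KRT80, a type II keratin found in many epithelia and in cells that start to differentiate, rose after siFOXA1 in both lines. Its level was 4.05 and 2.64 CPM in abl siFOXA1, 0.992 and 1.42 CPM in abl siCREB1, and 1.72 and 1.56 CPM in abl siControl. In LNCaP it was 12.7 and 11.9 CPM with siFOXA1, 5.30 and 4.89 CPM with siCREB1, and 4.15 and 4.36 CPM with siControl. Here too siFOXA1 was above every other library of the same line. The log2 fold change was 0.98 ± 0.24 in abl (edgeR adjusted p = 0.00271) and 1.53 ± 0.17 in LNCaP (adjusted p = 6.58e-06), and the difference of -0.55 ± 0.30 passed only without the first abl siFOXA1 library (edgeR adjusted p = 0.183 with all libraries, and -0.88 with adjusted p = 0.0369 without it). After siCREB1 the log2 fold change was -0.47 ± 0.28 in abl and 0.27 ± 0.18 in LNCaP, neither past the test (edgeR adjusted p = 0.181 and 0.279). KRT80 was lower in abl siControl than in LNCaP siControl, with a log2 fold change of -1.33 ± 0.23 (edgeR adjusted p = 0.000163). In that comparison 3 of the 7 tested keratins (3 of 5 without KRT14 and KRT17) were lower in abl, these being KRT8, KRT18 and KRT80, and none was higher, against 63.6% of all genes called and 33.1% called lower.

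The 4 basal keratins had few or no reads except in LNCaP siFOXA1. KRT5, KRT14, KRT15 and KRT17 together had 5 and 8 reads in abl siFOXA1, 4 and 2 in abl siCREB1, and 1 and 0 in abl siControl. In LNCaP they had 101 and 75 reads with siFOXA1, 0 and 2 with siCREB1, and 2 and 4 with siControl. Both LNCaP siFOXA1 libraries thus lay far above the other 10, yet the basal keratins were still only 0.302% and 0.204% of the reads of the 10 keratins there, and at most 0.0393% elsewhere. The reads were not spread evenly over the 4 genes.

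KRT17, a type I keratin induced in stressed or injured epithelium as well as in basal cells, had most of them. It had 58 and 50 reads in LNCaP siFOXA1 (2.45 and 1.91 CPM), none in LNCaP siCREB1, and 1 and 0 in LNCaP siControl. The log2 fold change was 6.26 ± 0.63 (edgeR adjusted p = 7.26e-06), and the ratio of scaled counts was 93.8 with a 95% interval of 16.5 to 3740 that covers counting error only. KRT17 passed the filter only through these siFOXA1 libraries, so this call is a description. In abl it had 2 and 2 reads with siFOXA1, 1 and 0 with siCREB1 and 0 with siControl. That puts siFOXA1 1.34-fold over a floor of 3 reads for the siControl group. The 4 siFOXA1 reads are taken as exact there, so the value is not a lower bound, and the test did not pass (edgeR adjusted p = 0.0585). Between the lines, 4 reads in abl siFOXA1 stood against 108 in LNCaP siFOXA1, a ratio of scaled counts of 0.0411 (0.011 to 0.108, counting error only), a comparison chosen after its values were seen. The difference between the siFOXA1 effects could not be resolved, at -2.10 ± 7.09 (edgeR adjusted p = 0.86). KRT17 has 8 pseudogenes in RefSeq and is very similar to KRT14 and KRT16, so the split of reads among these genes is uncertain.

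KRT14, the type I partner of KRT5 in basal cells, had 24 and 20 reads in LNCaP siFOXA1, 0 and 2 in LNCaP siCREB1, and 1 and 3 in LNCaP siControl. Its log2 fold change after siFOXA1 in LNCaP was 3.18 ± 0.63 (edgeR adjusted p = 0.00108), with a ratio of 9.55 (3.48 to 36.6, counting error only). Like KRT17 it passed the filter only through the LNCaP siFOXA1 libraries, so this call is a description. In abl it had 3 and 2 reads with siFOXA1, 1 and 1 with siCREB1 and 0 with siControl. The abl siFOXA1 libraries were called higher (edgeR adjusted p = 0.0498), at 1.67-fold over the floor of 3 reads. That call rested on 5 reads and was lost in 11 of 12 alternatives. In siControl cells KRT14 was 0 in abl against 4 reads in LNCaP. With the same floor this is 1.38-fold lower in abl, which did not pass (edgeR adjusted p = 0.0648). Both fold values take the larger count as exact, so they are not lower bounds.

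KRT15, a type I keratin of basal and progenitor cells, had 17 and 4 reads in LNCaP siFOXA1, none in LNCaP siCREB1, and 0 and 1 in LNCaP siControl. These siFOXA1 libraries differed between themselves more than for KRT14 or KRT17. The ratio to siControl was 18.2 (2.93 to 754, counting error only), and in a fit with no filter on low counts the log2 fold change was 3.91 ± 1.29 (edgeR adjusted p = 0.0145). In abl it had at most 3 reads in a library. KRT5, the type II partner of KRT14, had 0 to 2 reads in every library and 7 in all, so no difference was detectable at this depth.

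**Figure D4:**
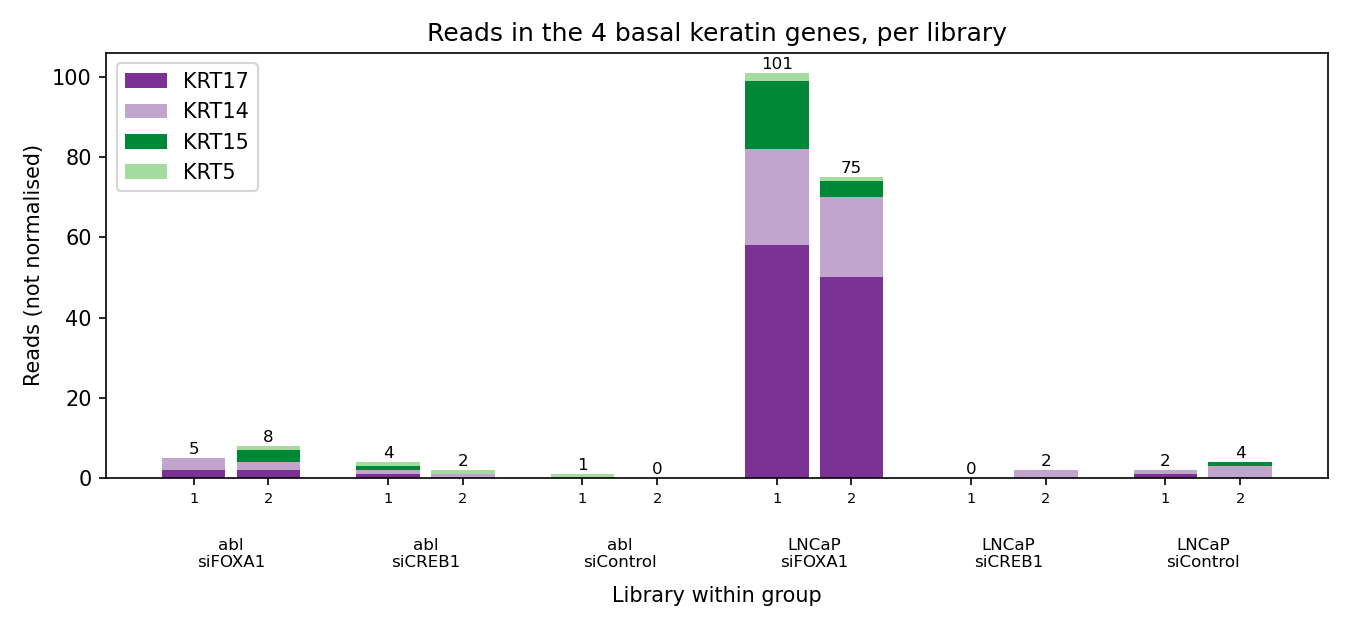
Reads in the 4 basal keratin genes in each library, stacked by gene and not normalised for depth, with the library's total above its bar. The LNCaP siFOXA1 libraries hold 101 and 75 reads and no other library more than 8; KRT17 makes up the largest share and KRT5 almost none.

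Basal genes other than keratins did not all move with them. The 9 basal prostate markers include KRT5, KRT14 and KRT15. After siFOXA1, 56.5% of all genes tested were called in abl (29.9% higher and 26.5% lower) and 49.8% in LNCaP (24.4% higher and 25.5% lower). Of the basal markers that are not keratins 5 were tested, and after siFOXA1 2 of these were higher and 2 lower in each line. Without the first siControl library of each line 1 was higher and 1 lower in abl, and 2 were higher and 1 lower in LNCaP. COL17A1, the transmembrane collagen of hemidesmosomes, was at 14.2 and 10.1 CPM in LNCaP siFOXA1 and at 0.253 and 0.256 CPM in LNCaP siControl (log2 fold change 5.55 ± 0.28, edgeR adjusted p = 4.33e-09). Only siFOXA1 libraries brought COL17A1 past the filter on low counts, so its calls, and the counts above that include them, are a description. In abl it was at 1.10 and 0.951 CPM with siFOXA1 and at 0.111 CPM in both siControl libraries, a log2 fold change of 3.14 ± 0.50 (edgeR adjusted p = 0.000103), and the effect was smaller than in LNCaP by a log2 difference of -2.40 ± 0.86 (edgeR adjusted p = 0.0471). That difference lost its call in 9 of 17 alternatives, with an adjusted p of up to 0.428. LAMB3, a chain of laminin-332, also rose in both lines, with log2 fold changes of 1.4 ± 0.28 in abl and 2.26 ± 0.23 in LNCaP (edgeR adjusted p = 0.000778 and 2.48e-06). The abl value was 0.98 without the first siControl libraries (edgeR adjusted p = 0.0507). ITGB4 and LAMA3 fell in both lines, but without those libraries ITGB4 in abl (-0.48, edgeR adjusted p = 0.0792) and LAMA3 in LNCaP (-0.20, edgeR adjusted p = 0.103) did not pass, nor did ITGB4 in abl without the first abl siFOXA1 library (-0.29, edgeR adjusted p = 0.135). The summed level of the basal list was 50.2 to 392 CPM, and its highest values were in abl, where LAMA3 alone was at 241.9 to 374.9 CPM and the basal keratins were near 0.

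Among the other 45 keratin genes in the tables, 6 passed the filter, namely KRT10, KRT16, KRT2, KRT36, KRT6C and KRT75. In LNCaP all 6 were called higher after siFOXA1, with a median log2 fold change of 2.86, where 24.4% of all genes were called higher with a median of -0.01. Only KRT10 and KRT75 passed the filter through every group, so neither the count nor the median of the 6 can be read against all genes. KRT16 entered the test only through the LNCaP siFOXA1 libraries, and the KRT2 call was lost without the first siControl libraries (1.58, edgeR adjusted p = 0.301). KRT16 and KRT6C belong to the group of keratins that are induced with KRT17 in wounded epidermis. KRT16 had 52 and 37 reads in LNCaP siFOXA1 and 1 and 0 in LNCaP siControl, a ratio of 77.3 (13.5 to 3090, counting error only; edgeR adjusted p = 4.2e-05), but 2 and 0 in abl siFOXA1 and 1 and 0 in abl siControl. KRT6C was higher after siFOXA1 in both lines, with log2 fold changes of 2.73 ± 0.41 in abl and 3.47 ± 0.39 in LNCaP (edgeR adjusted p = 6.31e-05 and 7.89e-06), and after siCREB1 in abl by 2.64 ± 0.41 (edgeR adjusted p = 0.000112). KRT36, a hair keratin, had 34 and 31 reads in abl siFOXA1 and none in abl siControl, 21.7-fold over the floor of 3 reads (edgeR adjusted p = 1.38e-05). In abl 3 of the 6 were higher and 2 lower after siFOXA1, and 3 were higher and none lower after siCREB1, these including KRT2, with 28 reads against 3 and a ratio of 8.95 (2.77 to 46.0, counting error only; edgeR adjusted p = 0.00175). The lower ones after siFOXA1 were KRT10 and KRT75, and neither passed without the second abl siControl library (-0.20 and -0.53, edgeR adjusted p = 0.0762 and 0.0598). Without the first siControl libraries only KRT6C was still called higher after siCREB1 in abl, with KRT2 at 2.37 (edgeR adjusted p = 0.0839) and KRT75 at 0.41 (edgeR adjusted p = 0.222). After siCREB1 in LNCaP 2 of 6 were higher, with KRT75 at 0.99 ± 0.14 (edgeR adjusted p = 0.000135) and KRT10 at 0.51 ± 0.08 (edgeR adjusted p = 0.000174). Between the lines (abl minus LNCaP) the siCREB1 effect differed for KRT10 alone of the 6, against 25.5% of all genes called. That difference was -0.54 ± 0.11 (edgeR adjusted p = 0.0022). The siFOXA1 effect differed for KRT10, KRT75 and KRT36, against 32.6% of all genes called. Those differences were -0.56 ± 0.11, -1.42 ± 0.25 and 5.24 ± 1.73 (edgeR adjusted p = 0.00127, 0.000573 and 0.0346). The KRT36 difference lost its call in 5 of 16 alternatives. KRT36 passed the filter only through siFOXA1 libraries, KRT2 only through abl knockdown libraries and KRT6C only through knockdown libraries. Calls, counts and medians that rest on these genes and KRT16 are therefore a description.

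Markers of stratified epithelium were mostly missing. KRT1, KRT4, KRT13, SPRR1B and LOR had 0 reads in all 12 libraries, and KRT10 accounted for most of the summed 23.5 to 40.9 CPM. IVL, a precursor of the cornified envelope, had 41 and 19 reads in abl siFOXA1, 8 and 5 in abl siCREB1 and 0 in abl siControl. In LNCaP it had 42 and 36 reads with siFOXA1, 4 and 2 with siCREB1, and 1 and 0 with siControl. After siFOXA1 it was at least 20-fold higher in abl (edgeR adjusted p = 5.14e-05) and its count ratio in LNCaP was 67.7 (11.8 to 2710, counting error only; edgeR adjusted p = 6.78e-05). IVL passed the filter on low counts only through siFOXA1 libraries, where it was high, so these calls are a description.

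Genes that anchor, fold or organise keratins moved in both directions. Counts in these lists stand beside the shares of all genes called, which were 56.5% in abl siFOXA1 (29.9% higher and 26.5% lower), 49.8% in LNCaP siFOXA1 (24.4% higher and 25.5% lower), 51.2% in abl siCREB1 (27.5% higher and 23.7% lower) and 37.6% in LNCaP siCREB1 (17.8% higher and 19.8% lower). Between the siControl groups 63.6% of all genes were called, 30.5% higher and 33.1% lower in abl. Of 18 desmosome and anchor genes 16 were tested. After siFOXA1 5 of these were higher and 2 lower in abl, and 5 were higher and 3 lower in LNCaP (8 and 2 without the first siControl libraries), with medians of 0.13 and 0.12 against 0.03 and -0.01 over all genes. DSP, the plakin that ties keratin filaments to the desmosome, fell by 1.07 ± 0.10 in abl and by 1.12 ± 0.10 in LNCaP as log2 fold changes (edgeR adjusted p = 5.28e-07 and 5.79e-07). PKP4, a plakophilin relative, fell by 1.05 ± 0.07 and 1.00 ± 0.07 (edgeR adjusted p = 1.93e-08 and 7.54e-08). JUP and PKP3 of the same list rose in both lines. JUP was at 0.79 in abl and 0.47 in LNCaP (edgeR adjusted p = 6.2e-07 and 0.000107). PKP3 was at 0.73 and 0.51 (edgeR adjusted p = 9.26e-05 and 0.00198). After siCREB1 4 were higher and 3 lower in abl, PKP3 at 0.75 ± 0.11 and PKP2 at 0.51 ± 0.10 among the higher (edgeR adjusted p = 9.31e-05 and 0.00093), and 1 was higher and 5 lower in LNCaP (3 and 2 without the first siControl libraries). Between the siControl groups 11 of the 16 were called, against 63.6% of all genes, with 3 higher and 8 lower in abl. There the plakins EPPK1 and PPL were 0.013-fold and 0.0336-fold their LNCaP level (edgeR adjusted p = 2.88e-10 and 1.46e-11).

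All 9 chaperone, modifier and organiser genes were tested. After siFOXA1 3 were higher and 2 lower in abl, and 5 were higher and 1 lower in LNCaP (3 and 0 without the first siControl libraries), with medians of 0.08 and 0.19 against the same 0.03 and -0.01. SFN, the 14-3-3 sigma protein that binds keratins, rose by log2 fold changes of 2.46 ± 0.46 in abl and 2.66 ± 0.25 in LNCaP (edgeR adjusted p = 0.000425 and 1.31e-06). HSPB1, a small heat shock protein that associates with filaments, rose in abl after siFOXA1 by 1.60 ± 0.16 and after siCREB1 by 1.16 ± 0.16 (edgeR adjusted p = 1.54e-06 and 3.9e-05), and both effects were higher than in LNCaP, by 1.68 ± 0.23 and 1.29 ± 0.23 (edgeR adjusted p = 7.54e-05 and 0.000947). After siCREB1 3 were higher and 2 lower in abl, and 1 was higher and 1 lower in LNCaP. TRIM29 of this list was among the lower in abl, at -2.01 ± 0.32 (edgeR adjusted p = 0.000151). Its line differences (abl minus LNCaP) were -2.19 ± 0.44 for siFOXA1 and -2.06 ± 0.48 for siCREB1 (edgeR adjusted p = 0.00167 and 0.00632).

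Of 14 other intermediate filament genes 10 were tested. After siFOXA1 5 were higher and 2 lower in abl, and 3 were higher and 2 lower in LNCaP, with medians of 0.80 and -0.07. VIM, the filament protein of mesenchymal cells, was at 22.4 and 23.1 CPM in abl siFOXA1 against 11.1 and 6.69 CPM in abl siControl, and at 45.4 and 36.1 CPM in LNCaP siFOXA1 against 60.2 and 49.5 CPM in LNCaP siControl. It was higher in abl and lower in LNCaP, and the 2 effects differed by 1.66 ± 0.26 (edgeR adjusted p = 0.000237). The LNCaP call was lost without the first siControl libraries (-0.26, edgeR adjusted p = 0.209) and without the second LNCaP siFOXA1 library (-0.28, edgeR adjusted p = 0.268). NEFL, a neurofilament, had 2 reads in abl siControl and 418 in LNCaP siControl, a ratio of scaled counts of 0.00461 (0.000556 to 0.0167, counting error only; edgeR adjusted p = 1.12e-08). In that comparison 6 of these 10 genes were lower and 1 higher in abl (4 and 1 without the first siControl libraries), against 63.6% of all genes called and 33.1% called lower. After siCREB1 3 were higher and 2 lower in abl, and 1 was higher and 2 lower in LNCaP.

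Of 21 factors that act on epithelial genes, 18 were tested. After siFOXA1 3 were higher and 9 lower in abl, and 6 were higher and 8 lower in LNCaP (6 and 5 without the first siControl libraries), against 56.5% of all genes called in abl and 49.8% in LNCaP. Both targets are in the list, and the medians were -0.28 and -0.09. After siCREB1 5 were higher and 7 lower in abl, and 5 were higher and 5 lower in LNCaP. Between the siControl groups 10 were higher and 5 lower in abl, against 63.6% of all genes called. KLF4, a factor of differentiating epithelium, rose after siFOXA1 in LNCaP by a log2 fold change of 2.25 ± 0.16 (edgeR adjusted p = 8.29e-08) and was at -0.15 ± 0.14 in abl (edgeR adjusted p = 0.381), a difference of effects of -2.40 ± 0.21 (edgeR adjusted p = 1.97e-06). KLF5, a factor of basal and progenitor cells, fell in abl after siFOXA1 by 2.05 ± 0.25 and after siCREB1 by 1.26 ± 0.23 (edgeR adjusted p = 1e-05 and 0.000444). In LNCaP it was also called lower, at -0.65 after siFOXA1 and -0.74 after siCREB1 (edgeR adjusted p = 0.0452 and 0.0316). Those LNCaP calls were lost in 6 and 2 of 13 alternatives. The siFOXA1 effects on KLF5 differed by -1.40 (abl minus LNCaP, edgeR adjusted p = 0.00887). The 11 luminal prostate markers are a list that shares KRT8, KRT18 and KRT19 with the keratins above. Of these markers 3 were higher and 3 lower after siFOXA1 in abl and 4 were higher and 3 lower in LNCaP, the secreted phosphatase ACPP falling by 4.36 ± 0.15 in LNCaP (edgeR adjusted p = 1.37e-10). After siCREB1 6 were higher and none lower in abl, where 27.5% of all genes were called higher and 23.7% lower. In LNCaP 3 were higher and 2 lower, where 17.8% of all genes were called higher and 19.8% lower. The 6 include KRT8 and KRT19, and not all of the 6 calls held when single libraries were left out.

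Likeness was measured over the 12 libraries as the root mean square difference (RMS) of log2 CPM, each gene centred on its own mean, among 12284 genes outside the keratins. The profiles nearest to KRT8 were those of KANK2, ILK and DECR2, with RMS differences of 0.10, 0.11 and 0.11, where KRT8 itself varied by 0.50. KRT80 lay nearest to LGALS3BP, LOC400236 and HSH2D (0.25, 0.26 and 0.30, against its own 1.08). Nearest to KRT19 were PIM1, ETS2 and STBD1 (0.48, 0.49 and 0.54, against 1.44), and the profile nearest to KRT20 was that of TBXAS1 (0.61, against 1.42). KRT14 was nearest to RASGRP1, CTSL1 and MME, and KRT17 to PLD1, CCL5 and GRIN3A, but both rest on very few reads outside LNCaP siFOXA1. KRT8 and KRT18 differed by 0.32, and 730 of the 15550 genes tested were nearer to KRT8 than KRT18 was.

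In the authors' deposited tables of genes that differ from siControl, 4 keratins were listed in abl siFOXA1, 7 in LNCaP siFOXA1, 3 in abl siCREB1 and 1 in LNCaP siCREB1. The tests here called 4, 6, 3 and 1 of these in the same direction. KRT15 was listed for LNCaP siFOXA1 in the authors' deposited table alone, at a log2 fold change of 3.91 with a false discovery rate of 0.0105, and KRT14 in abl siFOXA1 was called here alone.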

How the data were processed

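Libraries were made with the TruSeq RNA v2 kit, per the labels' protocols, and that kit does not mark strand. The authors deposited raw read counts per gene. Per the submitters' processing notes, CASAVA 1.8, TopHat2 2.0.8, Bowtie2 2.1.0, HTSeq 0.5.3p9, edgeR 3.0.6 and hg19 were used. Neither the annotation nor the strand setting is given in the sources used here. Also deposited by the authors were edgeR tables with log2 fold changes and p-values, which are used only where named. Per the labels each group is 1 sample, whose 2 count columns were taken as 2 libraries. Nothing says whether these came from separate cultures, so p-values measure only the spread between libraries. Replicates differed beyond sampling noise. Reads that the count assigned to no gene, 54.8% to 58.3% of a library, and ambiguous reads (0.77% to 0.92%) were left out.

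All 12 libraries (9092597 to 37314039 reads in genes) entered 1 fit with a mean per group in edgeR 4.0.16 (R 4.3.3) with TMM scaling and filterByExpr, which kept 15550 genes. Differences were tested by the quasi-likelihood F-test with Benjamini-Hochberg adjustment over those genes and called at an adjusted p below 0.05. The SE is the log2 fold change divided by the square root of F. The 95% interval of a log2 fold change was taken from this SE by the normal distribution, so it is narrower than the F-test would give. Ratios of counts have exact 95% intervals that cover counting error only. A group at 0 was set to a floor of 3 reads over the group. The fold over this floor takes the other group's count as exact, so it is not a lower bound. Alternatives were DESeq2 1.42.0, other scalings and filters, fits of the compared groups alone, a replicate block and leaving out libraries; running these for the list genes was added after seeing the data.

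The keratins, lists and tests were chosen with earlier results of these data known. Named are all 10 keratins and both siRNA targets. The other genes come from the 2 called genes of largest change per list and comparison and the 3 nearest profiles of each keratin that varied by at least 1 on the log2 scale; not every gene that these rules select is reported here. TP63, S100A9, and values of named genes in comparisons where the rule does not pick them, were added after they were seen. Peak lists were not used, because no gene positions of hg19 were at hand.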

Additional observations from a re-analysis of the deposited data

Results flagged for a closer look

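The siCREB1 effect on KRT20 differed between the lines by 1.86 ± 0.60 on the log2 scale (abl minus LNCaP, edgeR adjusted p = 0.0357), which marked it as an effect that is not alike in abl and LNCaP. KRT20 was at 6.31 and 3.36 CPM in abl siCREB1 against 2.31 and 1.34 CPM in abl siControl, so both abl knockdown libraries were higher. In LNCaP it was at 0.589 and 1.72 CPM with siCREB1 against 1.99 and 1.47 CPM with siControl, and the groups overlapped. The difference kept its direction in all 17 alternatives and lost its call in 6 of them (1.29 to 2.83, edgeR adjusted p 0.00365 to 0.157). Without the first LNCaP siCREB1 library it was 1.29, without the first abl siCREB1 library 1.35, without the first LNCaP siControl library 1.57, and without the second abl siControl library 1.68.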

How the results depend on the processing

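Of 680 recomputed values of the 7 tested keratins, 636 kept their direction and their side of the threshold, 24 lost a call, 4 gained one and 16 changed sign, each of the last being a value that was not called. Of 19 called results 14 were called in every alternative run, and the other 5 are KRT14 and KRT20 in abl siFOXA1, KRT20 in abl siCREB1, KRT8 in LNCaP siCREB1, and the difference between the siCREB1 effects on KRT20. The 14 include KRT14 and KRT17 in LNCaP siFOXA1. Those genes passed the filter only through the libraries where they were high, so their calls are a description. The count of keratins called in abl siFOXA1 was 3 without the first siControl library of each line and 3 to 4 without any single library, against 5. In LNCaP siCREB1 the count was 0 in a fit of the compared groups only and 0 to 1 without single libraries, against 1. For the difference between the siCREB1 effects it was 0 in the compared groups only, 0 without the first siControl library of each line and 0 to 1 without single libraries, against 1, and for that between the siFOXA1 effects 0 to 1 against 0. Without the first siControl library of each line, KRT18 in abl siCREB1 was 0.000822 and KRT20 in abl against LNCaP under siControl was -0.12. Leaving out single libraries gave -4.21 to 0.02 for KRT14 and -0.07 to 0.08 for KRT18 in LNCaP siCREB1, -0.41 to 0.49 for KRT20 in abl against LNCaP under siControl, and -0.09 to 0.22 for both knockdown differences of KRT8; for the siFOXA1 difference it gave -0.13 to 0.03 for KRT18, -0.09 to 1.21 for KRT19 and -0.34 to 0.78 for KRT20. Where a group was left with 1 library, that library was assumed to vary like the others. The cause of these moves was not tested. The replicate numbers pair the libraries only by number (correlations of deviations -0.17 to 0.52), and a replicate block gave 3, 4, 1 and 6 keratins called in abl siCREB1, abl siFOXA1, LNCaP siCREB1 and LNCaP siFOXA1, 1 and 0 for the siCREB1 and siFOXA1 differences, and 3 between the siControl groups; it ended only the KRT14 call in abl siFOXA1. No scaling moved the median of all genes by more than 0.068 on the log2 scale. The planned counts of peaks near keratin genes were not run. Depth limits KRT5, KRT7 and KRT15, and in abl KRT14 and KRT17, to statements about a few reads.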
